A study of Mus musculus with 4 samples.

Results

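Messenger RNAs of the proteins of the cytosolic large (60S) ribosomal subunit were measured in mouse embryonic stem cells with and without the chromatin remodeler Chd1. Members were taken by gene symbol, as names of the Rpl and Rplp families that stood as a single-gene locus in each of 2 deposited tables. The rule found 50 genes among 11728 named once in both tables, and all 50 were among the 10261 that averaged 1 FPKM or more and were tested. Of the 50, 45 encode subunit proteins and 5 are paralogs (Rpl7l1, Rpl10l, Rpl22l1, Rpl36al and Rpl39l), which are given apart. Rpl30 shared its locus with Gm12191 in both tables and was not counted as a member.

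The large subunit carries the peptidyl transferase centre, where peptide bonds form, the tunnel through which the new chain leaves, and a flexible stalk that recruits translation factors. Its proteins are made in the cytoplasm, imported into the nucleus and joined to ribosomal RNA in the nucleolus, and they are needed in near-equal numbers. Their mRNAs begin with a stretch of pyrimidines, the 5′ terminal oligopyrimidine (TOP) motif, through which mTOR signalling controls their translation. Fast-dividing embryonic stem cells make many ribosomes, and these mRNAs are among the most abundant in them.

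All cells were Rosa26CreER;Chd1fl/- embryonic stem cells, which hold a Cre recombinase activated by tamoxifen, a conditional Chd1 allele and a null allele. Control cells received ethanol and Chd1-null cells 1 µM tamoxifen for 48 to 72 h, and both were then passaged 3 to 5 times without drug in serum with LIF, so the controls also carry the null allele. RNA was taken from a matched number of viable cells of lines that the labels call independently derived, with synthetic ERCC transcripts added, and was depleted of ribosomal RNA. There were 4 libraries, with a control and a Chd1-null library forming each of 2 sets, and which line a set came from is not stated. The labels call the RNA normalized to cell number, but how the ERCC transcripts entered the values is not given in the sources used here, so a lower value is a lower deposited FPKM. Values are FPKM, fragments scaled to transcript length and depth, as deposited, so read depth is unknown and no counting interval is given.

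The promoters of the genes at the ends of the range of change described below are shown first, as the sequence around the start of transcription in RefSeq (GRCm38.p6). The windows run from 100 bases before to 25 after the start, 5′ to 3′, for the 3 lowest and the 3 highest members by mean log2 ratio that have a single window in the table. Capitals mark a run of at least 8 pyrimidines beginning with C, sought from 50 bases before the start onwards, the ETS-type motif CCGGAAG, the SP1-type motif GGGCGG and the TATA-type motif TATAAA, the last 3 on either strand.
Rpl10, chrX:74270716-74270840, plus strand: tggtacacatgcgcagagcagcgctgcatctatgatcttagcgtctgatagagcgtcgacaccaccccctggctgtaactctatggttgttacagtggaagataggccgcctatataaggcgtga
Rpl13a, chr7:45128721-45128845, minus strand: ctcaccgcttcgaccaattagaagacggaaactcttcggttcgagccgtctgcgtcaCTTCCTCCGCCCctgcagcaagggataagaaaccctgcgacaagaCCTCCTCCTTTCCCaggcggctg
Rpl39, chrX:37085198-37085322, minus strand: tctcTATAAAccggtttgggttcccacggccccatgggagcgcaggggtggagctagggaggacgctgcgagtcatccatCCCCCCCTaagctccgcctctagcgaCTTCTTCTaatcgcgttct
Rpl38, chr11:114668480-114668604, plus strand: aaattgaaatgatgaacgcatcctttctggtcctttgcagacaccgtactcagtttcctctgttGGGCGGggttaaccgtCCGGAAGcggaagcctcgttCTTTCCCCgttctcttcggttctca
Rpl31, chr1:39367751-39367875, plus strand: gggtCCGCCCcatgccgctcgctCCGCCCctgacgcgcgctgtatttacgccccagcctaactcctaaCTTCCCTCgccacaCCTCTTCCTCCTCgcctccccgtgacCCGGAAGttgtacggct
Rpl11, chr4:136053369-136053493, minus strand: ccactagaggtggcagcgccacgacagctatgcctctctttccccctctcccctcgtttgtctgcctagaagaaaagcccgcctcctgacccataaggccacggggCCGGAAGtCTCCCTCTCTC
The first 3 belong to genes that fell, and the last 3 to genes that were not called and whose mean log2 ratio was above 0. In the longer windows described next, Rpl39 also holds CCGGAAG and Rpl10 GGGCGG, outside the stretch printed here. Absence from a printed stretch is thus not absence from the promoter.

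Full windows, from 250 bases before to 50 after the start, were listed for 34 of the 45 subunit genes. A pyrimidine run in the last 100 bases of the window was found in 31 of these 34 genes (91.2%), against 31.2% of 7780 tested genes and 32.0% of all 27025 genes with a window. The run was defined after these windows had been seen, and Rpl10 has its own run beyond the stretch printed. CCGGAAG, whose reverse complement CTTCCGG can overlap such a run, was in 14 (41.2%), against 22.2% of tested genes and 9.93% of all. By mean log2 ratio, 5 of the 17 genes in the lower part of the order and 9 of the 17 in the upper part held CCGGAAG, while the pyrimidine run was in 15 and 16. GGGCGG was in 67.6% of the subunit genes and 72.5% of tested genes (38.2% of all), and TATAAA in 11.8% and 7.94% (15.7% of all). Other motifs searched on either strand were the YY1-type AAGATGGC (8.82%, against 5.86% of tested and 3.19% of all genes) and the CREB-type TGACGTCA (11.8%, against 4.05% and 2.03%).

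Chd1 was at 27.6 FPKM in the set 1 control against 5.71 in its Chd1-null partner, and at 17.9 against 8.52 in set 2, which left 20.7% and 47.7% of the control values (log2 fold change -1.66, limma SE 0.25, adjusted p = 1.8e-08, n = 2 pairs), so the library labelled Chd1-null 2 held the larger remainder. The 10 stem cell markers examined were present in every library and summed to 2898 to 3637 FPKM in controls and 2074 to 2142 FPKM in Chd1-null cells. Of 9 fibroblast markers 6 were in both tables, summing to 10.6 to 46.7 FPKM and 14.8 to 18.9 FPKM, and of 8 primitive endoderm markers 3, summing to 9.13 to 17.8 FPKM and 6.14 to 6.86 FPKM. Acta2 made up most of each fibroblast sum and Lama1 most of each endoderm sum. Lum, S100a4, Pdgfrb, Gata6, Sox17, Sox7, Foxa2 and Pdgfra were not in both tables. The part of other cells in the values below was not tested.

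In control cells the 45 subunit genes were all highly expressed, but not equally. Their levels ran from 173 to 3089 FPKM in control 1 (median 908) and from 157 to 2997 in control 2 (median 1008), a 17.8-fold and 19.1-fold range. The highest by mean level were Rpl12, at the base of the stalk, Rpl41, the shortest protein of the ribosome, and the stalk protein Rplp1. Rpl12 was at 3089 FPKM in the set 1 control against 2229.9 in its Chd1-null partner, and at 2823 against 1996 in set 2. Rpl41 was at 2821 FPKM in the set 1 control against 2249 in its Chd1-null partner, and at 2569 against 2073 in set 2. The lowest were Rpl15, Rpl29 and Rpl21, the last at 173 FPKM in the set 1 control against 143 in its Chd1-null partner, and at 157 against 119.6 in set 2. Of the 100 highest loci of each library, 25 to 27 were subunit genes. The order of levels was nearly the same in all libraries, with Pearson r of log2 levels over the 45 genes of 0.956 to 0.986. It was 0.986 between the controls and 0.986 between the Chd1-null libraries, and 0.966 and 0.972 between control and Chd1-null of a set. These r are given as a description, since the genes of a library share its depth and scaling.

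**Figure D1:**
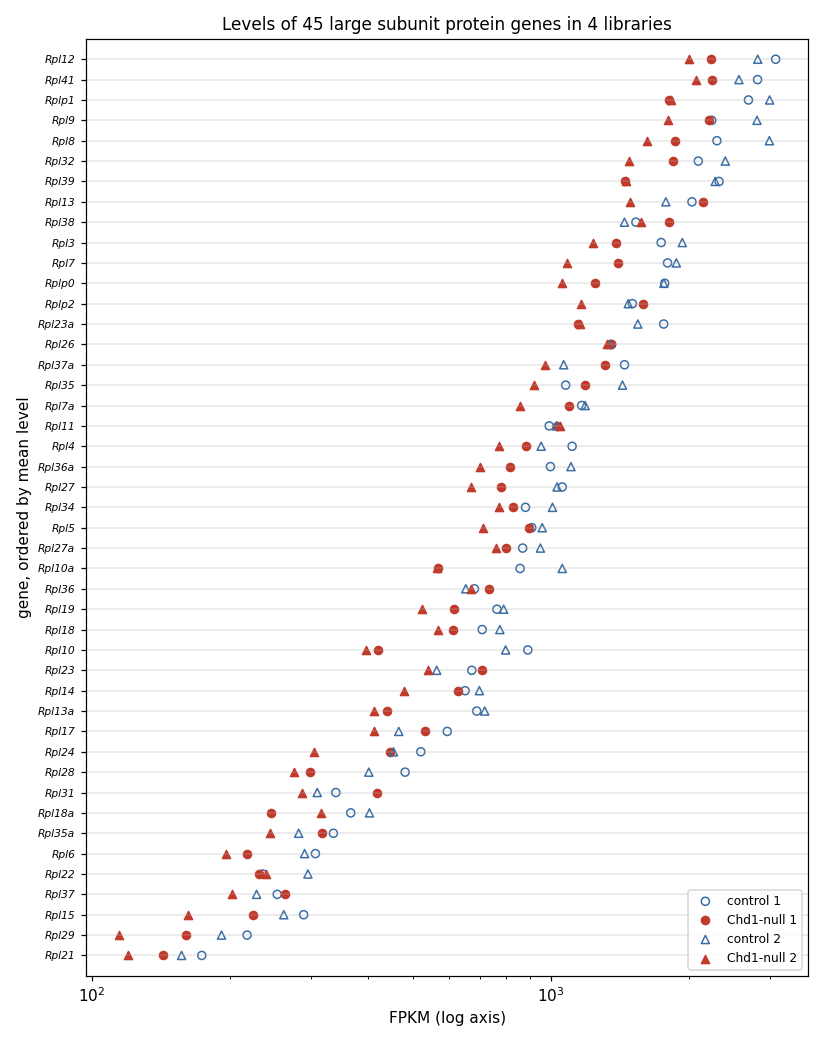
FPKM (horizontal log axis) of the 45 large subunit protein genes, ordered by mean level; open symbols are controls, filled symbols Chd1-null libraries, circles set 1 and triangles set 2. Levels span 114 to 3089 FPKM, and for 31 genes both filled symbols lie to the left of both open ones.

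The first comparison asked whether these mRNAs were lower in RNA from equal numbers of cells without Chd1. Of the 45 genes, 36 were lower in both sets, 3 were higher in both and 6 went opposite ways. Over all 10261 tested genes 72.4% were lower in both sets, 288 genes were higher in both and 24.8% went opposite ways. The median subunit gene had a set 1 log2 ratio of -0.23, or 85.5% of control, with quartiles of -0.44 and -0.020. In set 2 it was -0.47, or 72.2%, with quartiles of -0.65 and -0.30. Averaged, the medians came to -0.35 ± 0.17 (SD, n = 2). For all tested genes the medians were -0.46 and -0.33, so the subunit median lay 0.24 above that of all genes in set 1 and 0.14 below it in set 2. Both Chd1-null libraries lay below both controls for 31 of the 45 genes (68.9%), against 52.6% of tested genes. In bulk RNA, less RNA per cell and fewer cells of a type cannot be told apart.

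Tested gene by gene, 11 of the 45 fell (24.4%, limma adjusted p under 0.05 over all 10261 genes), where 9.80% of all tested genes fell, and 22 of the 45 were lower at an unadjusted p under 0.05, where 28.9% of all tested genes were. None of the 45 rose, also at an unadjusted p under 0.05, where 0.0682% of all tested genes did by adjusted p. Among the 586 other genes with a mean of at least 100 FPKM, small subunit genes left out, 18.9% fell. Of these 586 genes, 238 were lower at an unadjusted limma p under 0.05, a larger share than among all tested genes. These calls rest on a spread that limma shares among genes of similar level. With a common prior variance for all genes in place of it, and without the set term, 0 of the 45 genes passed in limma, although 6 and 18 had an unadjusted p under 0.05, against 16.7% and 10.2% of all tested genes. In both of these fits 0 of all 10261 genes were called, so the loss was not peculiar to the subunit genes. Leaving out any 1 of the 4 libraries leaves 1 sample in a group, so those fits cannot uphold the calls. The median log2 fold change of the 45 genes then ran from -0.46 to -0.22. The count of subunit genes that fell was 7 without the level filter, where 927 of all 11728 genes fell. It was 6 with a minimum mean of 5 FPKM, where 225 of all 6861 genes fell. With each library divided by its own FPKM total only Rpl10 of the 45 fell, where 37 of all 10261 genes did. The median log2 ratio of the 45 genes was then 0.067, where that of all tested genes was -0.013.

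**Figure D2:**
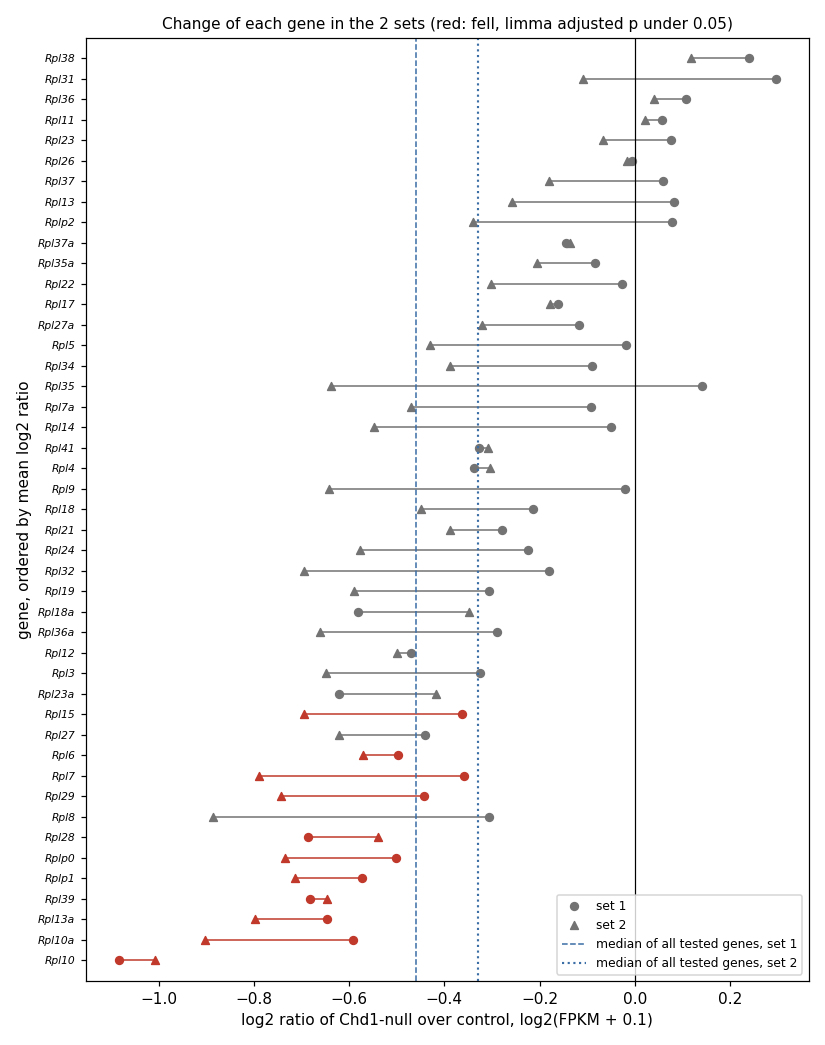
Log2 ratio of Chd1-null over control (horizontal axis) for each of the 45 genes in set 1 (circles) and set 2 (triangles), ordered by the mean of the sets; red marks the 11 genes that fell, and blue lines the medians of all tested genes. Rpl10 lies at -1.08 and -1.01, and Rpl38 at 0.24 and 0.12, at the ends of the order.

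Among the genes for proteins near the tRNA sites were the 2 subunit genes with the lowest mean log2 ratios, Rpl10 and Rpl10a, and the 5 genes of this group gave a median of -0.32 for set 1 and of -0.89 for set 2. The group median thus lay 0.14 above that of all tested genes in set 1 and 0.56 below it in set 2. Rpl10, a protein near the tRNA sites that joins the subunit late, in the cytoplasm, was at 891 FPKM in the set 1 control against 420.1 in its Chd1-null partner, and at 797 against 396 in set 2. It stood at 47.2% and 49.7% of control, and the groups did not overlap. Rpl10 fell by 1.05 on the log2 scale (limma SE 0.18, adjusted p = 3.2e-06, n = 2 pairs). Rpl10a, which forms the mobile L1 stalk at the tRNA exit site, was at 857 FPKM in the set 1 control against 568 in its Chd1-null partner, and at 1058 against 566 in set 2. It fell by 0.75 on the log2 scale (limma SE 0.19, adjusted p = 0.00312, n = 2 pairs), and the Chd1-null libraries, nearly equal to each other, were below both controls. Rpl8 and Rpl3 reach towards the peptidyl transferase centre, and Rpl36a contacts tRNA in the exit site. Rpl8 was at 2300.3 FPKM in the set 1 control against 1860.0 in its Chd1-null partner, and at 2993 against 1619.9 in set 2, a log2 fold change of -0.60 (limma SE 0.22, adjusted p = 0.0535, n = 2 pairs). Rpl3 and Rpl36a had log2 fold changes of -0.49 and -0.48 (limma adjusted p = 0.0988 and 0.0817). In these 5 genes the Chd1-null libraries never overlapped the controls, against 52.6% of all tested genes, and 2 of the 5 fell, against 9.80%.

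In the stalk, where Rplp0 anchors dimers of Rplp1 and Rplp2 and Rpl12 joins the base to ribosomal RNA, 2 of 4 genes fell. Over all tested genes 9.80% fell. Rplp1 was at 2695 FPKM in the set 1 control against 1812 in its Chd1-null partner, and at 2997 against 1829 in set 2, and it fell by 0.64 on the log2 scale (limma SE 0.22, adjusted p = 0.0378, n = 2 pairs). Rplp0 was at 1770.1 FPKM in the set 1 control against 1251 in its Chd1-null partner, and at 1762 against 1059 in set 2, and it fell by 0.62 on the log2 scale (limma SE 0.20, adjusted p = 0.0312, n = 2 pairs). For both genes the controls were close to each other and above both Chd1-null libraries. Rplp2, the dimer partner of Rplp1, did not follow it: it was at 1505 FPKM in the set 1 control against 1589 in its Chd1-null partner, and at 1474 against 1165 in set 2, higher in Chd1-null cells of set 1 and lower in those of set 2 (log2 fold change -0.13, limma SE 0.20, adjusted p = 0.64, n = 2 pairs). Rpl12 stood at 72.2% and 70.7% of control (log2 fold change -0.49, limma SE 0.22, adjusted p = 0.13, n = 2 pairs).

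The 5S ribonucleoprotein pair showed no call. Rpl5 and Rpl11 bind 5S ribosomal RNA, and outside the ribosome they bind and inhibit the p53 ligase Mdm2. Rpl11 was at 992 FPKM in the set 1 control against 1032 in its Chd1-null partner, and at 1029 against 1045 in set 2, so that the Chd1-null values were marginally above both controls (log2 fold change 0.040, limma SE 0.19, adjusted p = 0.89, n = 2 pairs). Rpl5 was at 908 FPKM in the set 1 control against 897 in its Chd1-null partner, and at 957 against 710.2 in set 2, close to control in set 1 and lower in set 2 (log2 fold change -0.22, limma SE 0.19, adjusted p = 0.40, n = 2 pairs).

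Proteins that line or surround the exit tunnel are encoded by 9 of the genes (Rpl4, Rpl17, Rpl19, Rpl22, Rpl23a, Rpl26, Rpl31, Rpl35 and Rpl39). Near the 72.4% and 9.80% of all tested genes, 7 of the 9 (77.8%) had lower values in each set and 1 (11.1%) fell. That gene was Rpl39, a very small protein inside the tunnel, at 2325 FPKM in the set 1 control against 1449.6 in its Chd1-null partner, and at 2281 against 1457 in set 2; it fell by 0.66 on the log2 scale (limma SE 0.21, adjusted p = 0.0255, n = 2 pairs). The controls differed little from each other, as did the Chd1-null libraries. At the other end, Rpl26, on the tunnel rim, was at 1356 FPKM in the set 1 control against 1351 in its Chd1-null partner, and at 1341 against 1326 in set 2, or 99.6% and 98.9% of control. Rpl31, also on the rim, was at 339.8 FPKM in the set 1 control against 417 in its Chd1-null partner, and at 309.5 against 287 in set 2, higher in set 1 and lower in set 2. Rpl35, a rim protein near where the signal recognition particle docks, gave the widest split, at 110.2% of control in set 1 and 64.3% in set 2.

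Facing the small subunit, Rpl23 (the site where the anti-association factor Eif6 binds), Rpl24 and Rpl41 gave no call, with log2 fold changes of 0.0048, -0.40 and -0.32 (limma adjusted p = 0.99, 0.11 and 0.31). The merged locus of Rpl30, a protein of the same face, was at 83.3% and 85.1% of control and was not tested. Of the 22 remaining subunit genes 18 (81.8%) had lower values in each set and 6 (27.3%) fell, against 72.4% and 9.80% of all tested genes. Rpl13a, known from human cells for silencing of inflammatory mRNAs after its release from the ribosome, was at 689 FPKM in the set 1 control against 440.3 in its Chd1-null partner, and at 717 against 412 in set 2. It fell by 0.72 on the log2 scale (limma SE 0.18, adjusted p = 0.00329, n = 2 pairs), with both Chd1-null libraries well below both controls. In limma Rpl28 fell by 0.61 (adjusted p = 0.0117), Rpl29 by 0.59 (adjusted p = 0.0125), Rpl7 by 0.57 (adjusted p = 0.0495), Rpl6 by 0.53 (adjusted p = 0.0269) and Rpl15 by 0.53 (adjusted p = 0.028). Rpl28 stood at 481 and 401 FPKM in controls against 299 and 276 in Chd1-null cells. Rpl29, one of the lowest in level, stood at 218 and 191 FPKM in controls against 160.1 and 114 in Chd1-null cells. For Rpl7 the values were 1795 and 1877 FPKM in controls against 1400.3 and 1086 in Chd1-null cells. In each of these genes, and in Rpl6 and Rpl15, the groups did not overlap. Rpl6 had 307 and 291 FPKM in controls against 217 and 195 in Chd1-null cells. Rpl15 had 289 and 262 FPKM in controls against 225 and 161 in Chd1-null cells. Rpl7 (adjusted p = 0.0495) and Rpl27 (log2 fold change -0.53, limma adjusted p = 0.0501) lay on either side of the threshold with like values, so the count of 11 has no sharp edge.

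The opposite end of the order held genes with values at or above control. Rpl38, whose loss in mice alters translation of Hox mRNAs and the axial skeleton, was at 1532 FPKM in the set 1 control against 1809 in its Chd1-null partner, and at 1447 against 1569 in set 2. Both Chd1-null libraries were above both controls, with set ratios of 0.24 and 0.12 on the log2 scale (log2 fold change 0.18, limma SE 0.21, adjusted p = 0.53, n = 2 pairs). Rpl36 stood at 108% and 103% of control (log2 fold change 0.074, limma SE 0.18, adjusted p = 0.78, n = 2 pairs). With Rpl11, these were the 3 genes of the 45 higher in both sets, where 288 of 10261 tested genes were. Both Chd1-null libraries exceeded both controls for Rpl38 and Rpl11 alone among the 45, and for 89 of 10261 tested genes.

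The second comparison asked which subunit genes departed from the shift shared by most genes, after each set's median log2 ratio was taken off. In limma none of the 45 fell and none rose relative to the median gene (lowest adjusted p = 0.69), where 0.214% of all tested genes fell and 0.146% rose. At an unadjusted p under 0.05, where 3.53% of all tested genes were lower and 2.76% higher, only Rpl10 of the 45 was lower, with a relative log2 change of -0.65 (limma SE 0.29), and none was higher. Rpl38 stood 0.57 above the median gene (limma SE 0.37, adjusted p = 0.95). These misses do not show that the genes moved with the median. The unadjusted count also depended on the setting. In limma with a minimum mean of 5 FPKM, which all 45 genes met, 9 of them had a relative unadjusted p under 0.05, in either direction. Over all 6861 genes it was 7.39%, and none of the 45 was called. With library totals as scale it was 10 of the 45, against 7.15% of all 10261 genes.

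The third comparison asked whether the spread among the 45 genes was the same in the 2 sets, which share no library. Across the 45 genes the log2 ratios of set 1 and set 2 had Pearson r = 0.695 and Spearman rho = 0.669, and r = 0.655 without Rpl10. Over all 10261 tested genes r was 0.0306, over the 586 other genes with a mean of at least 100 FPKM 0.391, and over 31 small subunit genes 0.499. These are descriptions across genes, which are not independent replicates, and whether the values of r differ was not tested. Of the 45 genes, 17 lay below the subunit median in both sets, 17 above it in both and 9 on opposite sides, the gene at the median of either set left out; of all tested genes 49.3% lay on the same side of their own medians in both sets. In 11 genes, among them Rpl10, Rpl39, Rpl12, Rpl41, Rpl4, Rpl17, Rpl26 and Rpl11, the log2 ratios of the sets differed by less than 0.1. The SD of the log2 ratios over the 45 genes was 0.29 in set 1 and 0.27 in set 2. In level, 37 of the 45 ratios (82.2%) were lower in set 2 than in set 1, against 42.1% of all tested genes and 73.5% of the other highly expressed genes. Set 2 was also the set with the larger remainder of Chd1, and the part of that in the difference was not tested.

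**Figure D3:**
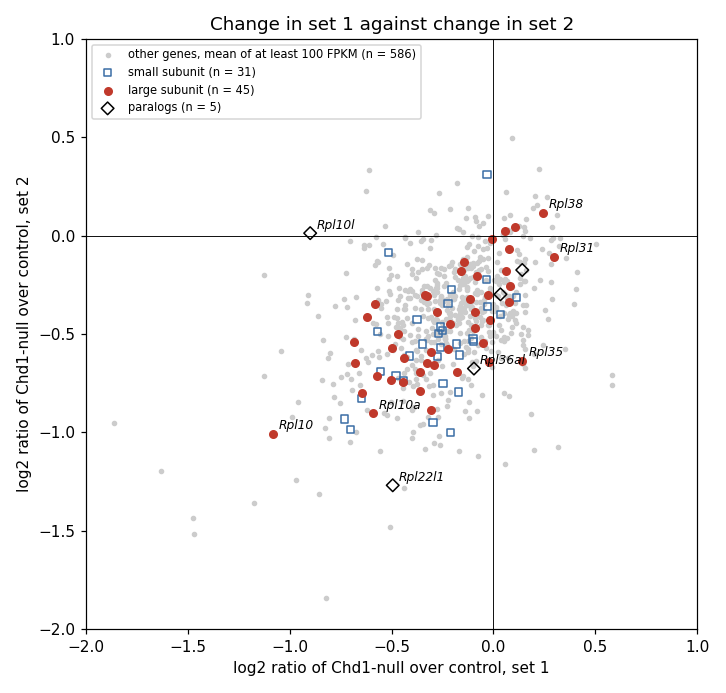
Log2 ratio of Chd1-null over control in set 1 (horizontal) and set 2 (vertical) for the 45 large subunit genes (red), their 5 paralogs (diamonds), 31 small subunit genes (squares) and 586 other genes with a mean of at least 100 FPKM (grey). The red points run from Rpl10 at the lower left to Rpl38 at the upper right, with r = 0.695.

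Summed over the 45 genes, subunit mRNA came to 51585 FPKM with Chd1 and 43587 without it in set 1, and to 52542 and 37540.3 in set 2. The controls were close to each other, and Chd1-null cells held 84.5% of the control sum in set 1 and 71.4% in set 2. All loci together summed to 79.9% and 72.0% of control. As a share of its library, the subunit sum was therefore 8.83% in control 1 and 9.33% in Chd1-null 1, and 7.30% and 7.25% in set 2. On this total the shares differed more between the sets than between control and Chd1-null cells of a set. Of the total over genes named once in both tables the shares were 11.1% and 11.5% in set 1 and 10.7% and 10.5% in set 2. There the controls were closer to each other than control and Chd1-null cells of set 1, but further apart than those of set 2. The Chd1-null libraries differed most from each other. These sums were not tested, since an exact two-sided sign-flip test of 2 pairs cannot go below p = 0.5.

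The small subunit sum, over 31 genes, stood at 82.6% and 67.5% of control. The ratio of the large to the small subunit sum was 1.31 in control 1 and 1.34 in Chd1-null 1, and 1.25 and 1.32 in set 2, higher in Chd1-null cells of both sets. The small subunit gene Rps14 was at 4497 FPKM in control 2, against 2003 in control 1 and 2246 in Chd1-null 2. Its high value lowers the ratio of control 2, and the ratio without it was not tested. Of the 31 small subunit genes 8 fell (25.8%, against 9.80% of all tested genes and 18.9% of the other highly expressed genes) and 0 rose. Their median log2 ratios were -0.26 and -0.55, against -0.23 and -0.47 for the large subunit. In limma the largest calls were Rps27 (-0.84, adjusted p = 1.7e-04), Rps20 (-0.83, 0.00385), Rps16 (-0.74, 0.00321) and Rpsa (-0.62, 0.00862), all proteins of the small subunit. Without the set term, or with a common prior variance, 0 of the 31 passed.

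**Figure D4:**
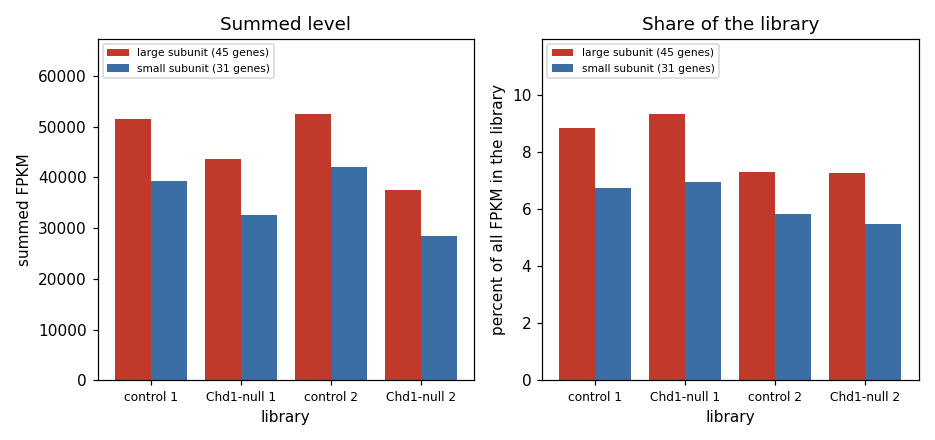
Summed FPKM (left) and share of all FPKM in the library (right) of 45 large subunit genes (red) and 31 small subunit genes (blue) in each library. The sums are lower in Chd1-null than in control libraries, while the large subunit share stays between 7.25% and 9.33%.

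Features that did not enter the choice of members were set beside the change. Genes with longer coding sequences had lower ratios. In the 14 genes with at least 600 coding bases the sets gave median log2 ratios of -0.35 and -0.67, and 7 of the 11 genes that fell were among them. In the 14 genes with fewer than 400 the medians were -0.055 and -0.31, and 2 fell, where 9.80% of all tested genes fell. Over the 45 genes Spearman rho between coding length (GENCODE vM21) and the change was -0.29 for set 1 and -0.42 for set 2, as a description of genes measured in the same libraries. The order was not strict, since Rpl39, with 153 coding bases, fell and Rpl4, with 1257, was not called (log2 fold change -0.32, limma SE 0.19, adjusted p = 0.24, n = 2 pairs). FPKM of very short transcripts depends on fragment length, whose part in this was not tested. The mean level showed little relation to the change (rho 0.027 and -0.11).

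By the same annotation 19 of the 45 genes hold small nucleolar RNAs in their introns, guides of ribosomal RNA modification. Of these hosts 4 (21.1%) fell, with median log2 ratios of -0.28 and -0.42. Of the 26 others 7 (26.9%) fell, with medians of -0.22 and -0.56, where 9.80% of all tested genes fell. Rpl4, with 5 such RNAs, and Rpl13a, with 4, stood at 79.2% and 63.9% of control in set 1. Processed pseudogenes are copies that can take or give reads. For 43 of the 45 genes at least 1 annotated pseudogene transcript matched the coding sequence at 95% identity over 80% of its length, 56 for Rpl21 and 8 for Rpl10, so single values are uncertain. Rpl8 and Rplp2 had none. The number of such copies had a rho of -0.056 and 0.040 with the log2 ratios. Of 9 genes mutated in human Diamond-Blackfan anaemia, a failure of red cell formation, 1 fell (Rpl15). That share of 11.1% is near the 9.80% of all tested genes. The medians of the 9 genes, -0.018 and -0.43, stood beside -0.23 and -0.47 for all 45.

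Among the 5 paralogs 1 fell, where 9.80% of all tested genes fell. Rpl22l1, a close relative of Rpl22 whose mRNA is bound and repressed by Rpl22 protein in mouse cells, was at 648 FPKM in the set 1 control against 460.0 in its Chd1-null partner, and at 1078 against 447 in set 2. It fell by 0.88 on the log2 scale (limma SE 0.18, adjusted p = 2.0e-04, n = 2 pairs), mostly in set 2, where its control value was the highest. The call was lost without the set term (adjusted p = 0.46), with a common prior variance (0.29), with library totals (0.089, log2 fold change -0.48) and when any 1 library was left out (0.52 to 0.81), and without control 2 the log2 fold change was -0.52. Rpl22 itself was at 235 FPKM in the set 1 control against 231 in its Chd1-null partner, and at 295 against 239.6 in set 2 (log2 fold change -0.16, limma SE 0.17, adjusted p = 0.49, n = 2 pairs). The paralog thus was above its parent in every library, at a ratio of 2.75 and 3.65 in the controls of sets 1 and 2, and 1.99 and 1.86 in the Chd1-null libraries. The Chd1-null ratios were close to each other and below both controls.

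The other paralogs gave no call. Rpl7l1, a nucleolar relative of Rpl7, was at 66.3 FPKM in the set 1 control against 73.1 in its Chd1-null partner, and at 72.5 against 64.2 in set 2, or 3.69%, 5.22%, 3.86% and 5.91% of Rpl7 in those libraries in that order. Its log2 fold change was -0.017 (limma SE 0.18, adjusted p = 0.95, n = 2 pairs), whereas Rpl7 fell, and the share of Rpl7l1 was higher in both Chd1-null libraries than in either control. Rpl36al, an intronless copy of Rpl36a, was at 345 FPKM in the set 1 control against 323 in its Chd1-null partner, and at 290.0 against 181 in set 2 (log2 fold change -0.39, limma SE 0.17, adjusted p = 0.12, n = 2 pairs). Rpl10l, a testis paralog of the X-linked Rpl10, was at 23.5 FPKM in the set 1 control against 12.6 in its Chd1-null partner, and at 13.3 against 13.4 in set 2, opposite ways in the sets (log2 fold change -0.44, limma SE 0.23, adjusted p = 0.18, n = 2 pairs). Rpl39l, another paralog known from testis, was at 6.04 FPKM in the set 1 control against 6.18 in its Chd1-null partner, and at 2.62 against 2.11 in set 2 (log2 fold change -0.13, limma SE 0.39, adjusted p = 0.81, n = 2 pairs). Reads of Rpl10l and Rpl39l can come from their far more abundant parents, so these low values are uncertain.

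**Figure D5:**
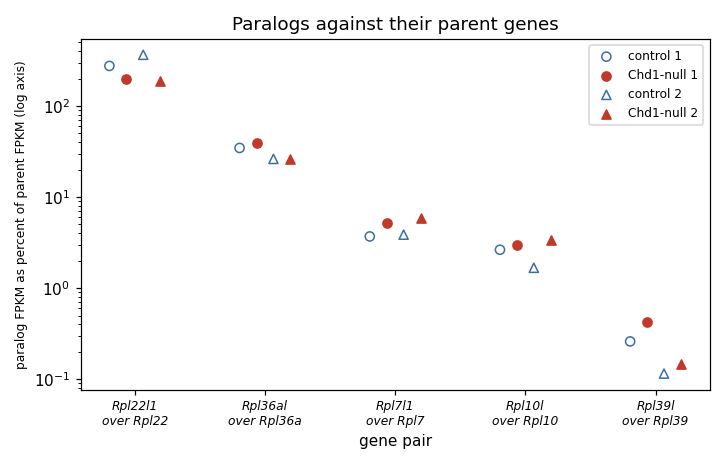
Level of each paralog as a percent of its parent gene (vertical log axis) in the 4 libraries; open symbols are controls, filled symbols Chd1-null, circles set 1 and triangles set 2. Rpl22l1 stands above its parent in all libraries, at 275% and 365% in controls and 199% and 186% in Chd1-null cells.

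Genes that act on the large subunit or on its mRNAs were read from the same fit. Of 53 tested assembly, export and maturation factors of the large subunit 41 were lower in both sets and 5 fell (9.43%), close to the 72.4% and 9.80% of all tested genes, with medians of -0.26 and -0.29. The share called is thus no result about the list, and the genes are given for their own values. In limma they were Eftud1 (-0.90, adjusted p = 0.0454), a GTPase of the last maturation step, Pelp1 (-0.89, 0.00443) and Tex10 (-0.50, 0.0446), both of the rixosome complex, Ncl (-0.61, 0.0182), or nucleolin, and Rsl1d1 (-0.56, 0.0181). Of both lists in this paragraph 0 genes passed without the set term or with a common prior variance. Tex10 is named here beyond the rule for named genes, as is Mycn below, after their values were seen. Of 17 factors known to act on ribosomal protein genes or mRNAs 5 fell (29.4%, against 9.80% of all tested genes) and 0 rose. The medians of these 17, -0.48 and -0.31, were near the -0.46 and -0.33 of all tested genes. The called genes were Eif4ebp2 (-1.35, limma adjusted p = 6.1e-05), a translation repressor under mTOR, the transcription factors Sp1 (-0.67, 0.0496), Max (-0.64, 0.0404) and Mycn (-0.62, 0.011), and Larp1 (-0.65, 0.0144), which binds TOP mRNAs. Larp1, Eif4ebp2 and Sp1 were lower mainly in set 1 (log2 ratios -1.08 and -0.22, -2.05 and -0.66, and -0.90 and -0.44). Max (-0.63 and -0.65) and Mycn (-0.60 and -0.64) were nearly equal in the sets. The median of all tested genes was also lower in set 1, whereas that of the subunit genes was higher there. A link between these genes and the subunit genes was not tested.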

How the data were processed

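RNA-seq of 4 libraries was used. Per the submitters' processing notes, the authors used Cuffdiff, Cufflinks 2.2.0, TopHat and TopHat2 2.0.10 with the mouse build mm9; the step each served, the annotation and the use of the ERCC transcripts were not stated. The deposited values were read as FPKM, from these tools and the values, since the file headers name no unit; none is below 0.1. The authors also deposited a ratio of Chd1-null over control per locus, which was not used.

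Single-gene loci named once in both tables were joined by symbol. A mean of 1 FPKM or more was required, leaving 10261 genes, tested on log2(FPKM + 0.1), which understates changes of low genes. limma 3.58.1 in R 4.3.3 (eBayes, trend on level) was run two-sided, with the set of each library as block and p-values adjusted by Benjamini-Hochberg over all genes (threshold 0.05). The pairing follows the set numbers of the labels and the separate tables; after removal of group means, libraries of a set correlated (r = 0.483). With 1 residual degree of freedom, p-values rest on a spread shared by genes of similar level and measure only the spread between these samples. A gene's own difference between the sets did not enter its SE in the main fit. Rpl22l1 and Rpl23, of similar level, both had an SE of 0.18, though the SD of their set ratios was 0.55 and 0.10. The SE given for a gene is thus not its own replicate error. For the relative comparison each set's median log2 ratio was taken off first. Simulated data were run through the relative fit alone. They held no set effect, less noise than was estimated here and larger changes than nearly all subunit genes showed. They thus do not bear on the calls made here.

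Members, lists and tests were chosen with earlier results of these data known. Named genes are the members called, the 6 lowest and 6 highest by change, and the 3 highest and 3 lowest by level. By the same rule the stalk, 5S and tRNA site genes, the paralogs, and up to 4 called genes per other list are named. Rpl4, Rpl13, Rpl17, Rpl22, Rpl24, Rpl27, Rpl35, Rpl37, Rps14, Tex10 and Mycn are named beyond this rule, after their values were seen. A further gene is not reported here. Coding lengths, snoRNAs and pseudogenes come from GENCODE vM21 and promoters from RefSeq (GRCm38.p6), matched by symbol. Alternatives were another pseudocount, other level filters, a common prior variance, no block, library totals as scale, and leaving out libraries.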

Additional observations from a re-analysis of the deposited data

Results flagged for a closer look

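Of the 50 genes, 9 had a log2 ratio of Chd1-null over control that was above 0 in one set and below 0 in the other, where 24.8% of all tested genes did. With 1 pair per set the difference between the sets was not tested. As the ratio in set 2 minus that in set 1, it was -0.78 for Rpl35, -0.42 for Rplp2, -0.40 for Rpl31, -0.34 for Rpl13, -0.33 for Rpl39l, -0.32 for Rpl7l1, -0.24 for Rpl37 and -0.14 for Rpl23, all higher than control in set 1 and lower in set 2. Rpl10l went the other way (0.91). Rpl35 had the widest difference among the 45 subunit genes, from 1077 to 1187 FPKM in the first set but from 1432 down to 921 in the other, and its control values also differed between the sets.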

How the results depend on the processing

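The count of 11 subunit genes that fell was 11, the same genes, with a pseudocount of 1, where 901 of all 10261 genes fell. It was 7 with no filter on level, where 927 of all 11728 genes fell. With a mean of at least 5 FPKM it was 6, where 225 of all 6861 genes fell. With each library divided by its FPKM total it was 1, where 37 of all 10261 genes fell. It was 0 both with a common prior variance and without the replicate block (lowest limma adjusted p = 0.29 and 0.46), where 0 of all 10261 genes fell. Each library was also left out in turn, in a group fit of the 3 left that assumes the lone sample varies like the other group. Those fits cannot uphold the calls, and the median log2 fold change of the 45 genes ran from -0.46 to -0.22. No subunit gene rose under any of these settings, nor was one called relative to the median gene where that comparison was run (not with library totals). Of 8 small subunit genes that fell 0 passed without the block or with a common prior variance and 4 with at least 5 FPKM; of 5 assembly factors and of 5 regulators these counts were 0, 0 and 1 each. The median log2 ratio of the 45 genes was -0.33, or -0.47 and -0.23 in set 2 and set 1 alone. Divided by library totals it was 0.067, above 0, while all genes then had a median of -0.013. By construction that scaling removes any shared change, and it turned the sign of 19 of the 45 subunit genes; among the named genes, paralogs included, these were Rpl21 (0.065), Rpl26 (0.39), Rpl36al (0.013), Rpl39l (0.25), Rpl41 (0.081), Rpl5 (0.17), Rpl7l1 (0.38) and Rplp2 (0.27), none of them called. Leaving out a library turned the sign of 1 to 7 of the 45 subunit genes, most without Chd1-null 2. Among the named genes it turned 7, none called, whose log2 fold changes then ran from -0.19 to 0.20 for Rpl23, from -0.024 to 0.0029 for Rpl26, from -0.18 to 0.36 for Rpl31, from -0.80 to 0.030 for Rpl36al, from -0.88 to 0.62 for Rpl39l, from -0.11 to 0.077 for Rpl7l1 and from -0.35 to 0.093 for Rplp2. As a percent of control, the subunit's share of its library was 105.8 and 99.2 in sets 1 and 2, 104.4 and 97.6 with the total over joint genes, and 102.8 and 99.9 without the 10 highest loci. With FPKM alone, depth and counting error cannot be given, and with 2 pairs a missed call does not show that a gene was unchanged.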
